A study of Mus musculus with 9 samples.

Results

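The amino acid and neurotransmitter solute carriers were taken as all genes with a single symbol of the families Slc1a, Slc3a, Slc6a, Slc7a, Slc17a, Slc18a, Slc32a, Slc36a and Slc38a in the probe annotation of the array. The rule gave 43 genes on 52 probes, of 15096 genes with a single symbol, and 7 of the 43 genes had more than 1 probe, which were averaged. RNA of male SJL/J and C57BL/6J mice, both inbred laboratory strains and aged 8 weeks, was compared in whole brain, whole kidney and whole liver on 2-colour spotted arrays, 3 for each tissue and 9 in all. Each array compared 20 ug of pooled SJL/J RNA (5 males, Alexa Fluor 647 dye) with as much pooled C57BL/6J RNA (5 males, Alexa Fluor 555 dye). The labels name no treatment or transgene, so the groups differed by strain and tissue. Within a tissue, the 3 arrays repeated 1 pair of pools and kept the dyes in place, so SDs and p-values measure the spread between arrays and not between mice, and a dye effect of a probe cannot be told apart from a strain difference within a tissue. On the kidney and liver arrays the tissue label of channel 1 read brain, and the tissue was taken from the titles and from channel 2.

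These carriers move amino acids and transmitters across cell and organelle membranes. In brain, Slc1a and Slc6a proteins use the sodium gradient to clear glutamate, GABA, glycine and monoamines from the extracellular space, and Slc17a, Slc18a and Slc32a proteins use a proton gradient to load transmitters into synaptic vesicles. In kidney and gut, Slc6a19 and the pairs of an Slc3a heavy chain with an Slc7a light chain recover amino acids from the lumen. In liver, Slc7a2 and the Slc38a carriers bring arginine, alanine and glutamine to the urea cycle and to gluconeogenesis, and Slc36a1 and Slc38a9 sit on lysosomes, where amino acids are sensed.

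Values are log2 ratios of SJL/J over C57BL/6J at each probe, never levels, so the abundance of a carrier in a tissue and the presence of a tissue's defining markers could not be read from these data. The log base was taken as log2 and the direction as likely, given the dyes, how titles order the strains, and the convention of limma. Nnt, which has a known deletion in C57BL/6J, had positive ratios on 9 of 9 arrays (means of 0.61, 0.67 and 0.48 in brain, kidney and liver). Correlations between arrays over all genes and unnamed probes were positive throughout, the lowest 0.29. Brain array 3 stood apart. It correlated at 0.54 and 0.58 with brain arrays 1 and 2, but at 0.60 to 0.64 with the kidney arrays, and its residual SD was 0.31, against 0.20 to 0.25 on the other arrays. Calls of the carriers in brain are therefore also given without it. Brain values of other genes and of gene lists are given with it included. A difference passed the test when its adjusted p was below 0.05 (limma, Benjamini-Hochberg over all 21262 genes and unnamed probes).

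Of the 43 carriers, 3 were higher and 6 lower in the SJL/J pool in brain, 8 were higher and 5 lower in kidney, and 4 were higher and 7 lower in liver. Brain thus had 20.9% of the carriers called, beside 17.4% of all genes with a single symbol (7.72% higher and 9.7% lower). Kidney had 30.2%, beside 27.4% (13.4% higher and 13.9% lower). Liver had 25.6%, beside 24% (9.98% higher and 14.1% lower). The share of carriers that passed was therefore near the background in every tissue. Medians of the carriers (log2 ratio, in the order brain, kidney, liver) were 0.02, 0.02 and -0.06, against 0.01, 0.03 and -0.02 for all such genes. Brain means ranged from -0.54 to 0.89, kidney means from -0.82 to 0.88 and liver means from -1.15 to 0.96. By gene, 19 carriers passed in no tissue, 16 in 1, 7 in 2, and Slc18a3 alone in all 3. Without brain array 3 the counts were 6 higher and 6 lower in brain, 8 and 9 in kidney, and 6 and 10 in liver. With the arrays centred on their Gapdh spots, none of the 6 carriers lower in brain passed, and in kidney Slc18a3 remained higher and Slc3a2, Slc6a9 and Slc17a7 lower. The Gapdh medians were -0.43, 0.03 and 0.25 on brain arrays 1, 2 and 3, so this centring shifted the brain arrays by unlike amounts.

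Except for that of Slc18a3, each brain call was lost when 1 or another array was left out. Of 3 higher and 6 lower, 1 and 0 were left without brain array 1, 1 and 1 without brain array 2, and 1 and 0 when brain was fitted alone. Without brain array 3, 8 of the 9 held. The values were then 1.29 for Slc1a5 (adjusted p = 0.000191, limma), 0.62 for Slc18a3 and 0.55 for Slc38a1 among those higher. Among those lower, Slc7a3 had -0.65, Slc7a5 -0.59, Slc3a2 -0.59, Slc7a13 -0.46 and Slc6a4 -0.43, with adjusted p from 0.00641 to 0.0316. Slc17a1 lost its call (-0.29, adjusted p = 0.122), and Slc1a2, Slc6a11, Slc1a4 and Slc38a9 (0.38, adjusted p = 0.0213) passed. Of these, Slc1a2 (0.88, adjusted p = 0.0146) and Slc38a9 (0.33, adjusted p = 0.0285) also passed with all arrays kept and weighted.

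**Figure D1:**
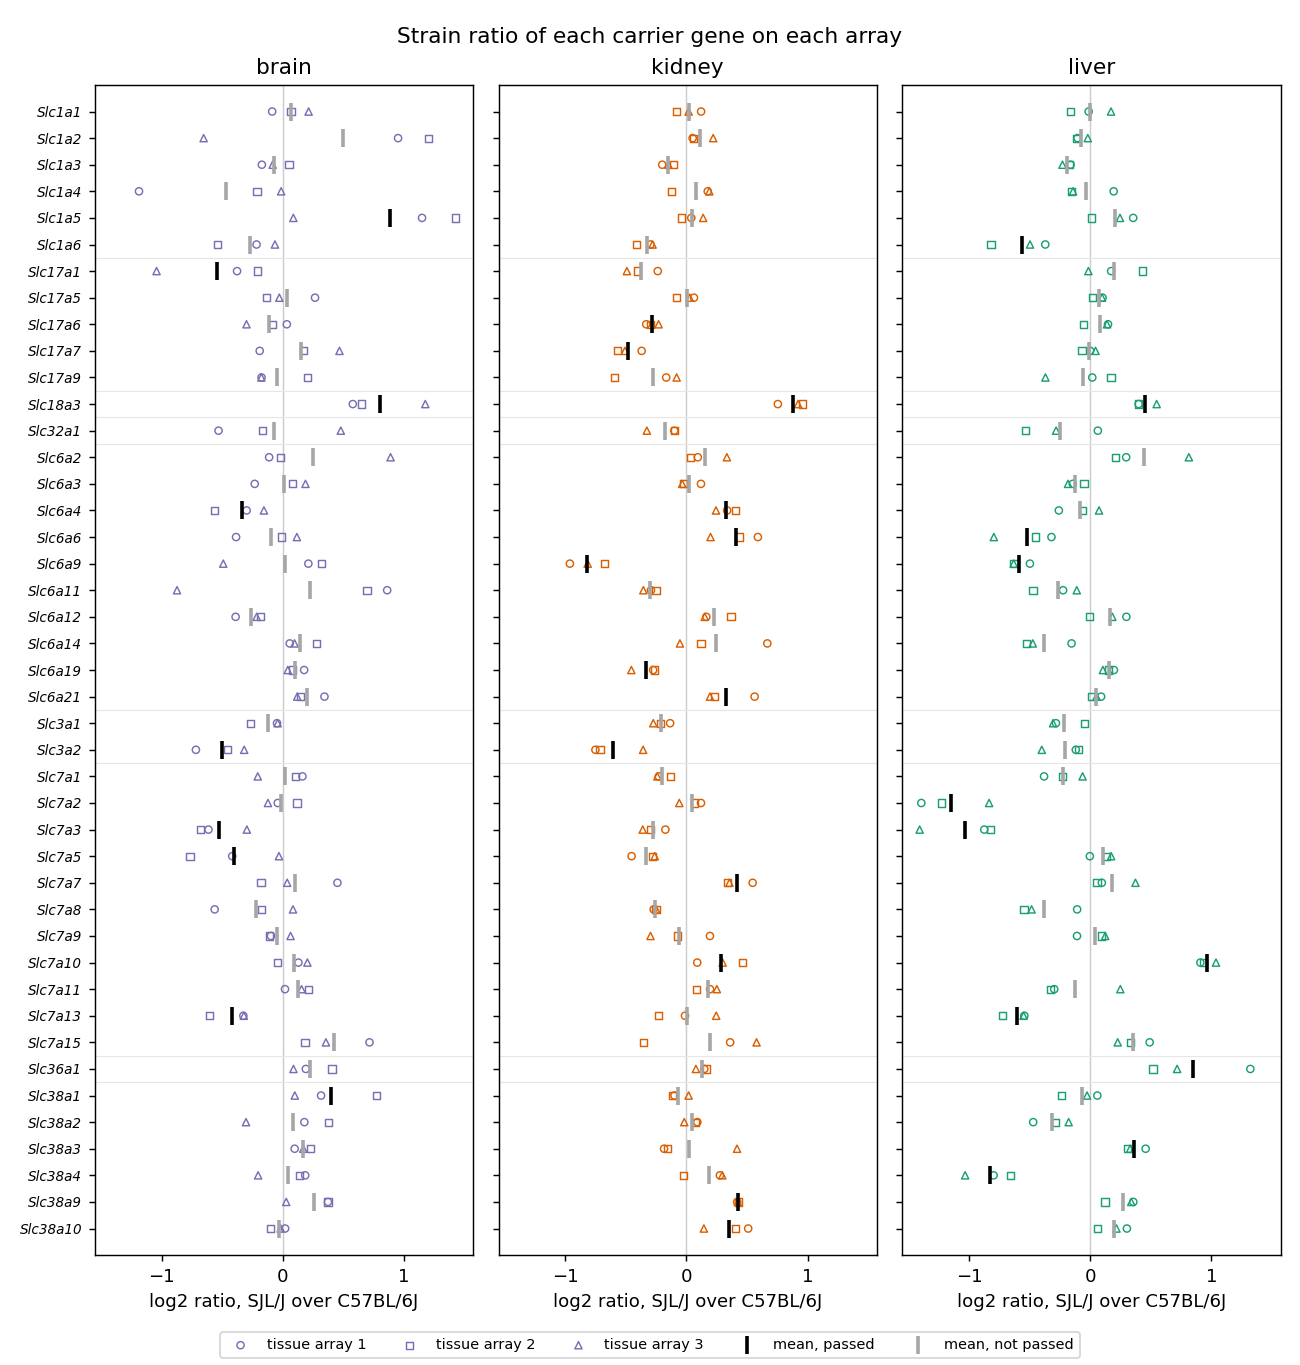
Log2 ratio of SJL/J over C57BL/6J (x axis) of the 43 carriers (rows, grouped by family) in brain, kidney and liver, with 1 open symbol per array and a bar at the mean of 3 arrays, black where the mean passed the test and grey where it did not. Slc7a2 and Slc7a3 have the lowest liver means, -1.15 and -1.04, Slc7a10 the highest, 0.96, and Slc18a3 lies right of 0 on all 9 arrays.

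The strain ratios furthest from 0 were those of cationic amino acid carriers in liver. Slc7a2, the arginine, lysine and ornithine transporter CAT-2 and the cationic carrier of liver, had liver ratios of -1.40, -1.23 and -0.84 on the 3 arrays, against -0.12 to 0.12 in brain and kidney. All liver arrays lay below all other arrays, and the mean was -1.15 ± 0.29 (SD, n = 3, adjusted p = 7.98e-05, limma), a 2.22-fold lower level in the SJL/J pool. On the deposited ratios the fall was seen at 1 of its 2 probes. Its first probe had -2.40, -2.17 and -1.72 in liver, whereas its second probe had -0.39, -0.29 and 0.04, a mean of -0.21 that did not pass when the probe was tested alone (adjusted p = 0.148). Which transcripts of Slc7a2 each probe detects was not analysed here.

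Slc7a3, the cationic carrier CAT-3 known from brain, had liver ratios of -0.88, -0.83 and -1.41, a mean of -1.04 ± 0.32 (SD, n = 3, adjusted p = 0.00032) or 2.05-fold lower. It was below 0 on the brain arrays as well, at -0.61, -0.68 and -0.30 (mean -0.53, adjusted p = 0.0149), and its kidney values of -0.17 to -0.36 did not pass (mean -0.28, adjusted p = 0.121). The brain call was lost without brain array 1 or 2 (adjusted p up to 0.0989) and with the medians of spot lines and columns removed (-0.38, adjusted p = 0.123). Slc7a1, CAT-1, the cationic carrier of most tissues, had tissue means of 0.02 (brain), -0.20 (kidney) and -0.23 (liver), with no call on the deposited ratios. Its probe lies on the same line as the second Slc7a2 probe. With medians of lines and columns removed, Slc7a1 had 0.08 in brain, 0.02 in kidney and -0.475 in liver.

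**Figure D2:**
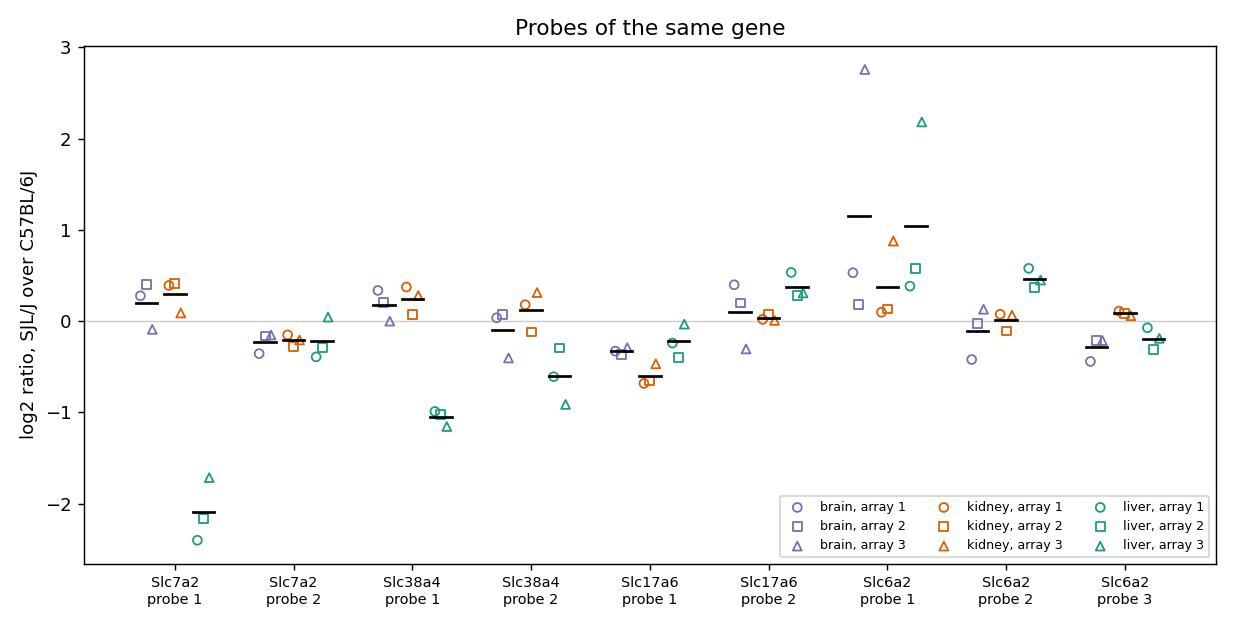
Log2 ratio of SJL/J over C57BL/6J (y axis) at each probe of Slc7a2, Slc38a4, Slc17a6 and Slc6a2 (x axis), coloured by tissue, with 1 symbol shape for each array number and a black bar at the mean of 3 arrays. The first Slc7a2 probe has a liver mean of -2.09 and the second -0.21, both Slc38a4 probes are below 0 on all liver arrays, and the first Slc6a2 probe is highest on array 3 of each tissue.

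Slc38a4, the system A carrier SNAT4 that takes up alanine and other neutral amino acids in hepatocytes, was lower in the SJL/J liver pool at both probes. Averaged, it had -0.80, -0.66 and -1.03 on the liver arrays, a mean of -0.83 ± 0.19 (SD, n = 3, adjusted p = 0.000622, limma), whereas brain and kidney arrays lay between -0.20 and 0.30. Tested alone, its probes gave -1.06 (adjusted p = 5.71e-05) and -0.61 (adjusted p = 0.0108). The related system A carrier Slc38a2 (SNAT2), which is known to rise in amino acid shortage, had -0.31 ± 0.15 in liver (adjusted p = 0.0878) and did not pass. Slc38a3 (SNAT3), the glutamine carrier of hepatocytes, kidney tubules and astrocytes, was higher in liver, at 0.46, 0.31 and 0.33 (mean 0.36, adjusted p = 0.044). That call is thin, as it was lost when any of 6 arrays was left out (adjusted p up to 0.189, without liver array 1).

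A pair of carriers was higher in the SJL/J liver pool by nearly 1 log2 unit. Slc7a10, the Asc-1 exchanger of small neutral amino acids that moves glycine and D-serine in brain and also marks adipocytes, had 0.91, 0.94 and 1.04 in liver. Its mean was 0.96 ± 0.07 (SD, n = 3, adjusted p = 9.15e-05), 1.95-fold higher, and no liver array overlapped the brain (-0.04 to 0.21) or kidney arrays (0.09 to 0.46). Slc36a1, the proton-coupled carrier PAT1 of lysosomes and the gut brush border, had 1.32, 0.52 and 0.72 in liver, a mean of 0.85 ± 0.42 (SD, n = 3, adjusted p = 0.00163) or 1.81-fold, and 0.08 to 0.41 on the brain and kidney arrays. The liver arrays of Slc36a1 were spread widely but all above its other arrays.

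Further carriers that fell in liver are known mainly from other organs. Slc6a9, the glycine transporter GlyT1, had -0.50, -0.63 and -0.63 (mean -0.59, adjusted p = 0.0131), and Slc6a6, the taurine transporter, -0.32, -0.46 and -0.80 (mean -0.52, adjusted p = 0.0138). The Slc6a9 call was lost without liver array 2 or 3 (adjusted p up to 0.0714) and that of Slc6a6 without liver array 3 (-0.39, adjusted p = 0.109). Slc7a13, the aspartate and glutamate carrier AGT1 of the kidney tubule, had -0.55, -0.73 and -0.55 in liver (mean -0.61, adjusted p = 0.00275) and -0.32, -0.60 and -0.32 in brain (mean -0.42, adjusted p = 0.0213). The brain call of Slc7a13 was lost without brain array 1 or 2 (adjusted p up to 0.141). Slc1a6, the glutamate transporter EAAT4 of Purkinje cells, had -0.37, -0.82 and -0.50 in liver (mean -0.56, adjusted p = 0.0056). The other 23 spots on the line of 24 consecutive probe numbers that holds Slc1a6 had a median of -0.46 there, and its ratio was -0.18 (adjusted p = 0.198) with medians of lines and columns removed.

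All liver ratios depend on where the arrays are centred. The authors' equal distributions put the median of all genes near 0, and centring each array on its 232 Gapdh spots instead raised every liver value by 0.35 to 0.43 on the 3 arrays. On that scale Slc7a2 (-0.77, adjusted p = 0.00439) and Slc7a3 (-0.65, adjusted p = 0.00646) still passed as lower. Slc38a4 (-0.45, adjusted p = 0.0515), Slc7a13 (-0.22), Slc6a9 (-0.20), Slc1a6 (-0.18) and Slc6a6 (-0.14) kept their sign but did not pass, and 18 carriers passed as higher. Slc1a1 and Slc17a7, near 0 on the authors' scale, were among them (0.38 and 0.37).

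Cell type markers moved in the same liver pools. Of 10 general hepatocyte markers 6 were higher, 1 lower and 3 did not pass, with medians of 0.60, 0.66 and 0.44 on the arrays. Of 10 markers of pericentral hepatocytes, the cells around the central vein that make glutamine, 6 were lower, 0 higher and 4 did not pass, with medians of -0.61, -0.47 and -0.70. Glul, the glutamine synthetase of those cells, had -0.85 ± 0.45 (SD, n = 3, adjusted p = 0.00374), and Slc1a2, the glutamate carrier they share with astrocytes, had -0.08 ± 0.05 (adjusted p = 0.854). Of 8 periportal markers 3 were higher and 3 lower. These shares were 70%, 60% and 75%, beside 24% of all genes. Among markers of brain cells, the share called in liver was 44.4% for oligodendrocytes and 42.9% for monoamine neurons. It was 16.7% for glutamatergic neurons, 10% for GABA neurons, 8.33% for astrocytes and 0% for general neuronal markers. The part of the markers in the carrier results was not tested, and in whole tissue fewer cells of a type and less RNA per cell cannot be told apart.

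RefSeq start sites were listed for 33 of the 43 carriers, among them 6 of the 11 that passed in liver. The 250 bases upstream of the listed start (GRCm38.p6, 5′ to 3′ on the gene's strand) are shown for the carriers with the highest liver ratios, for Slc18a3, which passed in every tissue, and for Slc7a11, whose promoter is known to answer to ATF4. Motifs were searched on both strands and matches are in capitals. They were the C/EBP-ATF response element TGATGNAAN (in 3.44% of all 32851 such windows), the HNF4 site CAAAGTCCA (0.384%), the HNF1 site (0.00913%), the cAMP response element TGACGTCA (1.55%) and the TATA box TATAAA (12.4%).
Slc7a10, chr7:35186135-35186384, plus strand: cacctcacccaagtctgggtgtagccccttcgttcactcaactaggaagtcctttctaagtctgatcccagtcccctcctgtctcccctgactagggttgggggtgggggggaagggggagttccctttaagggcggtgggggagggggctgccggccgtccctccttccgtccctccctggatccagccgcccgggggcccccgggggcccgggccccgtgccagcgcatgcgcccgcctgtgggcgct
Slc36a1, chr11:55204090-55204339, plus strand: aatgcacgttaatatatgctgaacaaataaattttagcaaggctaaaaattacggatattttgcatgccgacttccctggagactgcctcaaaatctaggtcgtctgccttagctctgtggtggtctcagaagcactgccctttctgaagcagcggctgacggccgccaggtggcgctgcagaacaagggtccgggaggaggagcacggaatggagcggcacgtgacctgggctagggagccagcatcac
Slc18a3, chr14:32464851-32465100, minus strand: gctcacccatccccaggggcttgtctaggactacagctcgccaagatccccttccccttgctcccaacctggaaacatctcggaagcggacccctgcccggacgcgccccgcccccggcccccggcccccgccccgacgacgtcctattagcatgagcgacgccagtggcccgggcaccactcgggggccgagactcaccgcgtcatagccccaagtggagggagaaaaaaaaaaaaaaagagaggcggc
Slc7a11, chr3:50443614-50443863, minus strand: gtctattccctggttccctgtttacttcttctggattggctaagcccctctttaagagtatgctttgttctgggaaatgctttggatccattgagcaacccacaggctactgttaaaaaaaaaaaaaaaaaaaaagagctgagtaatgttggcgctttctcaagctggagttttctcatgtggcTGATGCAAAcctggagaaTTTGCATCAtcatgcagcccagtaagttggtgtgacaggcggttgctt

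The first 3 windows held none of the 5 motifs, and the Slc7a11 window held the C/EBP-ATF response element once on each strand, from 66 to 58 and from 48 to 40 bases upstream. Slc7a11, the cystine and glutamate exchanger xCT, had no call, with brain arrays at 0.02 to 0.22, kidney arrays at 0.09 to 0.25 and liver arrays at -0.33 to 0.25. The same element was found upstream of Slc17a1, Slc6a21 and Slc7a7 as well. The HNF4 site was found upstream of Slc3a1 alone among the carriers with a listed start. These are matches of letters and not measured binding sites.

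Among the vesicular carriers, Slc18a3 stood above 0 on every array. It encodes the vesicular acetylcholine transporter and lies within the first intron of Chat, the acetylcholine synthase gene. Brain arrays had 0.58, 0.65 and 1.18 (mean 0.80 ± 0.33, SD, n = 3, adjusted p = 0.0013), kidney arrays 0.76, 0.96 and 0.92 (0.88 ± 0.11, adjusted p = 0.000469) and liver arrays 0.40, 0.40 and 0.55 (0.45 ± 0.09, adjusted p = 0.0187). These ratios are 1.74-fold, 1.84-fold and 1.36-fold, and no difference between tissues passed. SJL/J RNA carried the same dye on all 9 arrays and Slc18a3 had 1 probe. A dye effect of that probe therefore cannot be told apart from a strain difference shared by the tissues. It was the only carrier of the 43 to pass for a ratio shared by the tissues, tested on 1 mean per tissue (0.71, adjusted p = 0.0498), beside 1.6% of all genes (0.185% higher and 1.42% lower). That call was lost without the array in turn for 7 of the 9 arrays and without probe numbers that are multiples of 8, which changed the rows tested and not the gene.

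The line of spots of Slc18a3 was also raised, with medians of 0.20, 0.25 and 0.22 for its other 23 spots. Once line and column medians were subtracted, the gene kept 0.49 in brain (adjusted p = 0.0221) and 0.54 in kidney (adjusted p = 0.0117) but not its call in liver (0.22, adjusted p = 0.242). The liver call was also lost without any 1 liver array (adjusted p up to 0.107). Chat had -0.12, 0.00 and 0.06 in brain, kidney and liver and passed nowhere, and Slc5a7, the choline carrier of cholinergic terminals, was lower at -0.86 ± 0.25 in brain (SD, n = 3, adjusted p = 0.00113) and -0.65 ± 0.10 in kidney (adjusted p = 0.00345).

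The vesicular glutamate carriers, averaged over probes, were lower in kidney, and neither passed in brain. Slc17a7 (VGLUT1) had -0.37, -0.57 and -0.51 on the kidney arrays (mean -0.48, adjusted p = 0.0116) and -0.19, 0.18 and 0.47 on the brain arrays (mean 0.15, adjusted p = 0.379). The kidney call was lost without kidney array 2 (adjusted p = 0.0731) or 3. Slc17a6 (VGLUT2) had -0.29 ± 0.05 in kidney (SD, n = 3, adjusted p = 0.0375), but its probes disagreed, with -0.60 at one (adjusted p = 0.00114) and 0.03 at the other (adjusted p = 0.874). The first probe alone was lower in brain too, at -0.33, -0.36 and -0.29 (adjusted p = 0.0326), while the second had 0.10 there. The kidney call of Slc17a6 was lost without any 1 kidney array (adjusted p up to 0.164). Slc32a1, the vesicular GABA and glycine carrier, had brain ratios of -0.53, -0.16 and 0.48 and did not pass in any tissue. The same holds for Slc17a5, sialin of lysosomes (means of 0.00 to 0.07), and Slc17a9, the vesicular nucleotide carrier (-0.28 to -0.05). Slc17a1, a phosphate and urate carrier of kidney and liver, had -0.38, -0.21 and -1.04 in brain (mean -0.54, adjusted p = 0.0297) and -0.29 (adjusted p = 0.122) without brain array 3.

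Among the carriers that clear transmitters from the synapse, several had a brain array 3 far from arrays 1 and 2. Slc1a2 (GLT-1), the main glutamate carrier of astrocytes, had 0.95 and 1.21 on brain arrays 1 and 2 and -0.65 on array 3, a mean of 0.50 ± 1.01 (SD, n = 3, adjusted p = 0.215). Slc6a11 (GAT-3), the GABA carrier of astrocytes, behaved alike, with 0.86 and 0.70 against -0.87 (mean 0.23, adjusted p = 0.568). Without array 3 both passed, at 1.08 (adjusted p = 0.000218) and 0.78 (adjusted p = 0.00148). The probes of Slc1a2 and Slc1a5 are neighbours, numbers 20218 and 20217. Slc1a5 (ASCT2), the glutamine exchanger of dividing cells, had 1.15, 1.43 and 0.09 in brain (mean 0.89, adjusted p = 0.0128), with 0.06 as the median of the other spots on their line. The Slc1a5 call was lost without brain array 1 or 2 (adjusted p up to 0.098).

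**Figure D3:**
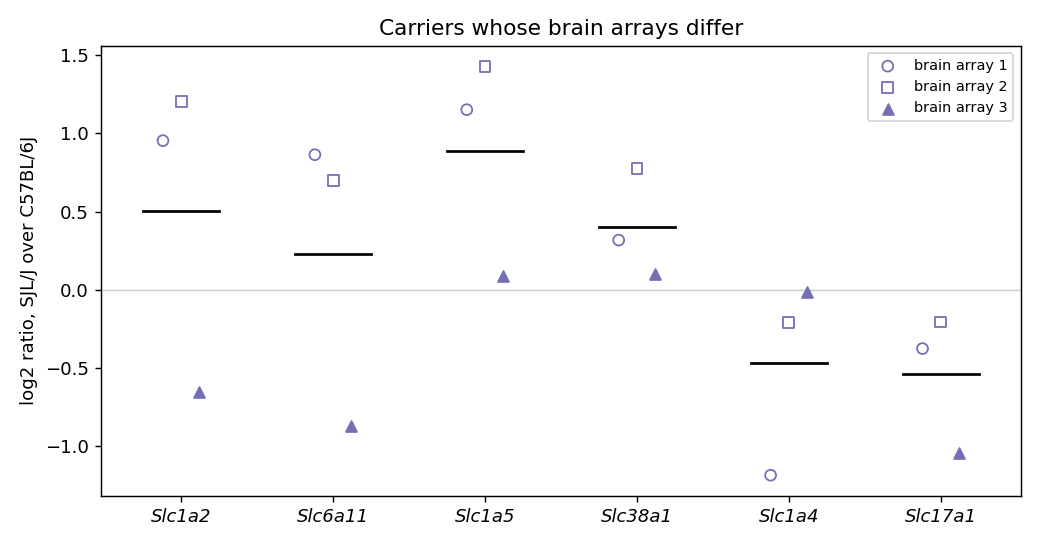
Log2 ratio of SJL/J over C57BL/6J (y axis) of 6 carriers (x axis) on the 3 brain arrays, with array 3 as filled triangles and a bar at the mean of the arrays. Array 3 lies below 0 for Slc1a2 (-0.65) and Slc6a11 (-0.87) while arrays 1 and 2 lie at 0.70 or above.

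Of 12 astrocyte markers in brain, 0 were higher, 1 was lower (Aldh1l1, -0.49, adjusted p = 0.0313, limma) and 11 did not pass, with medians of 0.06, 0.19 and 0.23 on arrays 1, 2 and 3. That share was 8.33%, beside 17.4% of all genes. Single markers also spread widely between the brain arrays, with Gja1, a gap junction gene, at -0.68 ± 1.27 (SD, n = 3) and Slc4a4 at 0.17 ± 0.53. Their part in the carrier results was not tested. The other astrocytic glutamate carrier, Slc1a3 (GLAST), had a brain mean of -0.07 ± 0.11 (SD, n = 3) over 3 probes, with -0.29 to 0.26 at single probes, none of which passed alone. Slc1a1 (EAAC1), the glutamate carrier of neurons and the kidney tubule, lay within 0.07 of 0 in every tissue. Slc1a4 (ASCT1), which carries serine to neurons, had -1.19, -0.21 and -0.01 in brain (adjusted p = 0.108), and -0.70 (adjusted p = 0.0371) without array 3.

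Of the 3 monoamine carriers of the plasma membrane, 1 passed. Slc6a3, the dopamine transporter, had tissue means of -0.13 to 0.02 and passed nowhere. Slc6a4, the serotonin transporter, had -0.30, -0.56 and -0.15 in brain (mean -0.34, adjusted p = 0.04) and 0.34, 0.41 and 0.24 in kidney (mean 0.33, adjusted p = 0.0349). The brain and kidney arrays did not overlap, and the difference between the tissues passed (-0.67, adjusted p = 0.0331). That difference was lost with the replicate number as a block, with arrays centred on Gapdh spots and without any 1 of 5 arrays (brain 1 and 2, kidney 1 to 3; adjusted p up to 0.113). Both calls within a tissue were also lost on leaving out single arrays (adjusted p up to 0.242 in brain, without brain array 2, and up to 0.163 in kidney, without kidney array 2). Slc6a2, the noradrenaline transporter, did not pass, and its probes disagreed by more than 1 log2 unit. Its first probe had 0.53, 0.18 and 2.76 in brain and 0.38, 0.58 and 2.18 in liver, whereas the other probes had brain means of -0.11 and -0.29. Tested alone, those passed in opposite directions, the second higher in liver (0.47, adjusted p = 0.0125) and the third lower in brain (-0.29, adjusted p = 0.0424).

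Slc6a9 (GlyT1) was the lowest carrier in kidney. It had -0.96, -0.68 and -0.82 there, a mean of -0.82 ± 0.14 (SD, n = 3, adjusted p = 0.00217) or 1.76-fold lower, against 0.21, 0.32 and -0.49 in brain. The kidney call held in 19 of 19 alternative settings, from -0.94 to -0.75. The betaine and GABA carrier Slc6a12, which protects the renal medulla from salt, had -0.26 in brain, 0.23 in kidney and 0.16 in liver. None of these passed, but the dependence on tissue did (adjusted p of the moderated F-test 0.0423). Slc6a6, the taurine carrier, was higher in kidney at 0.59, 0.43 and 0.20 (mean 0.41, adjusted p = 0.0361), a call lost without any 1 kidney array (adjusted p up to 0.204, without kidney array 1).

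Of the heavy chains, which bring light chains to the cell surface, Slc3a2 (4F2hc or CD98) was lower in brain and kidney. It had -0.72, -0.46 and -0.32 in brain (mean -0.50, adjusted p = 0.0131) and -0.75, -0.71 and -0.36 in kidney (mean -0.61 ± 0.22, SD, n = 3, adjusted p = 0.00339). Its liver mean of -0.21 ± 0.17 did not pass (adjusted p = 0.212). The kidney call held in 19 of 19 alternative settings, from -0.73 to -0.37. Its -0.37 came with line and column medians subtracted, and the other 23 spots on its line had a kidney median of -0.26. The call in brain was lost without brain array 1 or 2 (adjusted p up to 0.0815). Slc3a1 (rBAT), the heavy chain of cystine uptake in the proximal tubule, had -0.12, -0.21 and -0.21 in brain, kidney and liver, and its light chain Slc7a9 had -0.05, -0.06 and 0.04, with no call.

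The light chains that pair with Slc3a2 did not move as a set. Slc7a5 (LAT1), which carries large neutral amino acids and L-DOPA over the blood-brain barrier, had -0.42, -0.76 and -0.03 in brain (mean -0.40, adjusted p = 0.0439) and -0.33 ± 0.11 in kidney (SD, n = 3, adjusted p = 0.0695). Its brain call was lost on leaving out any 1 of 8 arrays (adjusted p up to 0.281, without brain array 2), brain array 3 being the exception. Slc7a7 (y+LAT1), the basolateral exporter of cationic amino acids in kidney and gut, was higher in kidney at 0.55, 0.34 and 0.36 (mean 0.42, adjusted p = 0.0283). Its line was raised by 0.14, and the ratio was 0.21 (adjusted p = 0.252) with line and column medians removed. It was also lost without any 1 kidney array (adjusted p up to 0.156). Slc7a8 (LAT2), its neutral partner on the same membrane, had -0.27, -0.25 and -0.25 in kidney (adjusted p = 0.152) and -0.38 in liver (adjusted p = 0.0506).

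Slc6a19 (B0AT1), the carrier that recovers most neutral amino acids from the tubule fluid, was lower in the SJL/J kidney pool. It had -0.28, -0.27 and -0.46, a mean of -0.33 ± 0.11 (SD, n = 3, adjusted p = 0.012), against 0.04 to 0.20 on the brain and liver arrays. The kidney arrays lay below all the others, and the call was lost without kidney array 3 (-0.27, adjusted p = 0.0905). Cltrn (collectrin), which brings Slc6a19 to the brush border, had 0.02 ± 0.01 in kidney (adjusted p = 0.919). Among 14 markers of the proximal tubule, 3 were higher and 1 was lower in kidney (28.6%, beside 27.4% of all genes), with a median of 0.01. Slc38a9, the lysosomal arginine sensor of mTORC1, had 0.42, 0.43 and 0.42 in kidney (mean 0.42, adjusted p = 0.00832) and stood above 0 on 9 of 9 arrays, at 0.26 in brain (adjusted p = 0.0777) and 0.27 in liver (adjusted p = 0.0601). Of other genes of that pathway on the list of partners, Mtor (0.64, adjusted p = 0.00387) and Rraga (0.41, adjusted p = 0.0339) were higher in kidney. Rptor (0.21, adjusted p = 0.214), Lamtor1 (0.11, adjusted p = 0.58) and Rragc (0.08, adjusted p = 0.686) did not pass.

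The remaining calls were small. Slc38a10 was higher in kidney at 0.51, 0.40 and 0.14 (mean 0.35, adjusted p = 0.0185) and Slc6a21 at 0.56, 0.23 and 0.19 (mean 0.33, adjusted p = 0.026). Both were lost without kidney array 1 (adjusted p = 0.137 and 0.205) or 2, and once line and column medians were taken off. Tested alone, the probes of Slc38a10 had 0.49 (adjusted p = 0.0164, limma) and 0.22 (adjusted p = 0.224) in kidney. In brain they had -0.33 and 0.27, and neither passed there. Slc7a10 had 0.09, 0.46 and 0.30 in kidney (mean 0.28, adjusted p = 0.0455), lost without any 1 of 6 arrays (adjusted p up to 0.271, without kidney array 2). Slc38a1 (SNAT1), which supplies glutamine to neurons, had 0.32, 0.78 and 0.10 in brain (mean 0.40, adjusted p = 0.0431). That call was lost on leaving out any 1 array other than brain array 3 (adjusted p up to 0.277). Slc7a15, with 0.19 to 0.72 in brain, and Slc6a14, a broad carrier of neutral and cationic amino acids with 0.67, 0.12 and -0.05 in kidney, passed in no tissue.

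Differences between tissues compare the same probes, so a dye effect cancels in them as far as a probe behaves alike in both. The strain ratio differed between liver and kidney for 9 of the 43 carriers, 3 higher and 6 lower in liver, or 20.9% beside 18.5% of all genes with a single symbol (8.18% higher and 10.3% lower). Liver and brain differed for 3, or 6.98% beside 9.78% (4.82% higher and 4.97% lower in liver). Brain and kidney differed for 2, or 4.65% beside 4.82% (2.23% higher and 2.59% lower in brain). Slc7a2 was lower in liver than in kidney by 1.20 log2 units (difference -1.20, adjusted p = 0.00123) and than in brain (difference -1.14, adjusted p = 0.00219). At its second probe alone, with line medians not removed, these differences were 0.00 (adjusted p = 0.998) and 0.01 (adjusted p = 0.97). With line and column medians removed, that probe had -0.49 in liver, -0.002 in kidney and -0.17 in brain, and the differences were not tested. For Slc38a4 these differences were -1.01 (adjusted p = 0.00285) and -0.87 (adjusted p = 0.0093), and for Slc7a10 they were 0.68 (adjusted p = 0.00814) and 0.86 (adjusted p = 0.0041). The taurine carrier Slc6a6 had opposite calls, higher in kidney (0.41) and lower in liver (-0.52), with a difference of -0.93 (adjusted p = 0.00743). Centred on Gapdh spots, the differences of Slc38a4 and Slc6a6 kept their sign but did not pass (adjusted p from 0.0656 to 0.169). The difference of Slc7a2 from brain did not pass there either, while its difference from kidney did. Those of Slc7a10 held in 18 of 18 alternatives. By the moderated F-test 12 carriers (27.9%, beside 20.1% of all genes) depended on tissue. That count ranged from 3 (without kidney array 1) to 20 (without brain array 3) when single arrays were left out.

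**Figure D4:**
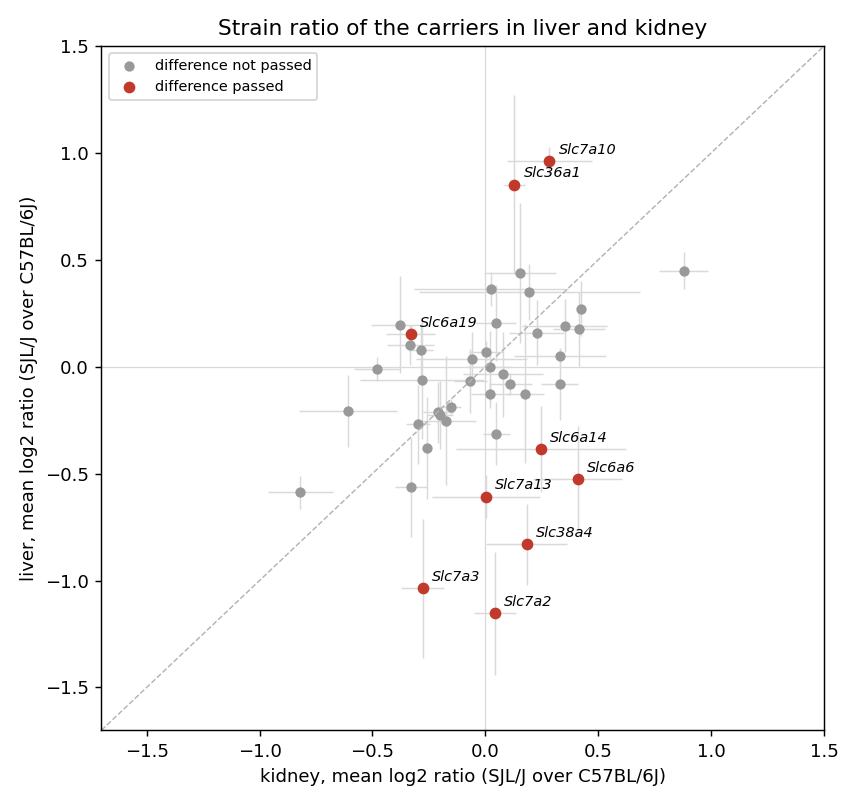
Mean log2 ratio of SJL/J over C57BL/6J in kidney (x axis) and liver (y axis) for the 43 carriers, with SDs of 3 arrays as grey bars, equal ratios as a dashed line, and the 9 carriers whose difference passed in red with names. Slc7a10 and Slc36a1 lie above the line, Slc6a19 lies above it with a kidney ratio of -0.33, and Slc7a2, Slc38a4, Slc7a3, Slc7a13, Slc6a6 and Slc6a14 lie below.

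Genes that make and break down the carried transmitters were read beside the carriers. Of 33 measured enzymes 1 was higher and 5 lower in brain, 5 and 3 in kidney, and 3 and 11 in liver, with medians of 0.00, 0.02 and -0.17. The shares were 18.2%, 24.2% and 42.4%, beside 17.4%, 27.4% and 24% of all genes. In liver, Glud1, glutamate dehydrogenase, had -1.59 ± 0.08 (SD, n = 3, adjusted p = 0.000127), Ddc, which makes dopamine and serotonin, -1.32 ± 0.07, and Gch1, which opens the synthesis of tetrahydrobiopterin, -1.20 ± 0.30. Pts, the next enzyme of tetrahydrobiopterin synthesis, was lower in all tissues, at -0.56 in brain (adjusted p = 0.0154), -1.07 in kidney (adjusted p = 0.000332) and -0.63 in liver (adjusted p = 0.00733). The GABA synthases went opposite ways in kidney, Gad1 at 0.54 (adjusted p = 0.0246) and Gad2 at -0.57 (adjusted p = 0.00955), and neither passed in brain.

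A list of other amino acid, peptide and choline carriers had 17 measured genes. Of these, 2 were higher and 3 lower in brain, 0 and 5 in kidney, and 1 and 2 in liver. The shares were 29.4%, 29.4% and 17.6% beside the same background. Slc43a3, of the Slc43 family, was lower in all tissues (-0.43, -0.41 and -0.80 in brain, kidney and liver). What it carries was not examined here. Slc25a15, the mitochondrial ornithine carrier of the urea cycle, was lower in kidney (-0.74 ± 0.13, SD, n = 3, adjusted p = 0.000278), and Slc25a13, the mitochondrial aspartate and glutamate carrier citrin, in liver (-0.68 ± 0.40, adjusted p = 0.00739). Of 23 partners and regulators of the carriers 1 was higher and 0 lower in brain, 2 and 3 in kidney, and 0 and 4 in liver. In both directions together, these shares of 4.35%, 21.7% and 17.4% were below the 17.4%, 27.4% and 24% of all genes. In liver all 4 that passed were lower, 17.4% beside 14.1% of all genes lower. Nedd4l, a ubiquitin ligase that removes carriers from the membrane, was lower in kidney (-0.37, adjusted p = 0.0144) and liver (-0.95, adjusted p = 8.94e-05), and its relative Nedd4 in liver (-0.80, adjusted p = 0.00877). Prkcb, a protein kinase C, was lower in kidney (-0.93, adjusted p = 5.73e-05) and liver (-0.47, adjusted p = 0.00336).

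Genes of the amino acid response, in which ATF4 raises carriers and synthetases when amino acids run short, were read last. Of 34 members 3 were higher and 1 lower in brain, 8 and 0 in kidney, and 5 and 7 in liver, with medians of 0.02, 0.15 and -0.20. The share that passed was 11.8% in brain, 23.5% in kidney and 35.3% in liver, beside 17.4%, 27.4% and 24% of all genes. In both directions together it was thus below the background in brain and kidney. All 8 that passed in kidney were higher, 23.5% beside 13.4% of all genes higher, with 0 lower beside 13.9%. In kidney the higher members included Chac1 (0.70 ± 0.09, SD, n = 3, adjusted p = 0.00031), Ppp1r15a (0.68, adjusted p = 0.00248) and Atf4 itself (0.63, adjusted p = 0.00732). In liver Ddit3, the stress factor CHOP, was lower (-0.70, adjusted p = 0.00348). In brain Aars, an alanyl-tRNA synthetase, was higher at 0.92 ± 0.83 (SD, n = 3, adjusted p = 0.0212).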

How the data were processed

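The deposited table held 1 log2 ratio for each of 23040 spots on 9 arrays, made by the authors with R 2.0.0 and limma per the submitters' processing notes. All 9 columns held the same set of sorted values, so the arrays' distributions were equal as deposited. How background and dyes were corrected is not given in the sources used here. No filter on dim spots was applied, as intensities were not analysed here.

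The platform annotation gave 16874 probes 1 symbol and 134 several, and 6032 stayed unnamed. All 43 carriers matched the RefSeq gene table of GRCm38.p6 by gene identifier. Probes of a gene were averaged per array, other probes were kept as single rows, and 1 coefficient per tissue was fitted to 21262 rows (limma 3.58.1, R 4.3.3; 6 residual and 4.07 prior degrees of freedom). Tests were two-sided. Alternatives left out probe numbers that are multiples of 8, subtracted medians of lines of 24 spots and of columns, recentred arrays, combined probes otherwise, tested fewer rows, weighted arrays, fitted a tissue alone, left out arrays or added the replicate number as a block. The fit was tested on simulated data. Members and gene lists were chosen with earlier results of these data known.

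Carriers were to be named where they passed with 1 sign on all arrays of a tissue, passed for tissue dependence or a shared ratio, were the highest or lowest of a family, or had probes more than 1 log2 unit apart, with up to 4 genes per pathway list. The other carriers, and Chat, Cltrn, Gad1, Gad2, Glul, Rraga, Rptor, Lamtor1, Rragc, Atf4, Aldh1l1, Gja1 and Slc4a4, were chosen after their values were seen.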

Additional observations from a re-analysis of the deposited data

Results flagged for a closer look

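The strain ratio of 11 carriers differed between a pair of tissues by a test of the difference itself (limma contrasts, adjusted over all rows, 3 arrays a tissue). Liver minus kidney gave -1.20 for Slc7a2 (adjusted p = 0.00123), -1.01 for Slc38a4 (adjusted p = 0.00285), -0.93 for Slc6a6 (adjusted p = 0.00743), -0.76 for Slc7a3 (adjusted p = 0.0166), -0.63 for Slc6a14 (adjusted p = 0.0443) and -0.61 for Slc7a13 (adjusted p = 0.0214). It gave 0.72 for Slc36a1 (adjusted p = 0.0285), 0.68 for Slc7a10 (adjusted p = 0.00814) and 0.48 for Slc6a19 (adjusted p = 0.0173). With Gapdh centring, the differences of Slc38a4, Slc6a6, Slc7a3, Slc6a14 and Slc7a13 did not pass. With single arrays left out, the differences of Slc7a2, Slc38a4, Slc6a6 and Slc7a10 held, and the others were lost without at least 1 array (adjusted p up to 0.133, for Slc6a14).

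Liver minus brain gave -1.14 for Slc7a2 (adjusted p = 0.00219), -0.87 for Slc38a4 (adjusted p = 0.0093) and 0.86 for Slc7a10 (adjusted p = 0.0041). Those of Slc7a2 and Slc38a4 did not pass with Gapdh centring. Brain minus kidney gave -0.67 for Slc6a4 (adjusted p = 0.0331) and 0.84 for Slc6a9 (adjusted p = 0.0426). Both were lost with the replicate block and with Gapdh centring. Leaving out single arrays ended the call for Slc6a4 in 5 of 9 cases (adjusted p up to 0.113) and for Slc6a9 in 8 of 9 (adjusted p up to 0.142). The Slc7a2 differences did not pass at its second probe alone with line medians not removed (0.00 from kidney and 0.01 from brain). With line and column medians removed, that probe had -0.49 in liver, -0.002 in kidney and -0.17 in brain, which was not tested. Groups of 3 arrays are too small for a test of single outlying arrays.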

How the results depend on the processing

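Of the 33 calls of a carrier in a tissue, 7 held in all alternatives run (Slc18a3 in brain and kidney, Slc3a2 and Slc6a9 in kidney, and Slc7a3, Slc7a10 and Slc36a1 in liver), and 26 were lost in 1 or more. Counts below are of carriers, higher before lower, with the main count in brackets, and the cause of each shift was not tested. With arrays centred on Gapdh spots, 0 [6] were lower in brain, 1 [8] higher and 3 [5] lower in kidney, and 18 [4] higher and 2 [7] lower in liver. Liver minus kidney then gave 6 [3] and 1 [6], liver minus brain 6 [1] and 0 [2], brain minus kidney 0 [1] and 0 [1], and tissue dependence 7 [12]. There Slc17a7 (0.37, adjusted p = 0.0335, limma) and Slc1a1 (0.38, adjusted p = 0.0428) turned from just below 0 to higher in liver. With array weights, 5 [3] were higher in brain and 9 [5] lower in kidney, liver minus kidney gave 7 [3] higher, liver minus brain 2 [1] and 6 [2], brain minus kidney 5 [1] and 2 [1], and tissue dependence 20 [12]. Fitting a tissue alone left 1 [3] higher and 0 [6] lower in brain and gave 11 [5] lower in kidney. With line and column medians subtracted, 5 [8] were higher in kidney, brain minus kidney gave 2 [1] higher, and 0 [1] passed for a shared ratio. Without multiples of 8, and with 1-symbol genes only, 0 [1] passed for a shared ratio. Genes with 1 symbol only gave 2 [1] higher in liver minus brain and 2 [1] in brain minus kidney, which centring on probes with 1 symbol also raised to 2 [1]. Probes were also tested singly, with 1 kept per gene, the nearest to the gene's mean or, at a tie, the lowest number. That gave 2 [1] and 1 [2] in liver minus brain and 2 [1] lower in brain minus kidney. Slc17a6 in kidney went from -0.29 to 0.032 (adjusted p = 0.874), as its probe with -0.60 was the one left out.

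With the replicate number as a block, 5 [8] were higher in kidney, liver minus brain gave 2 [1] higher and brain minus kidney 0 [1] and 0 [1], and the other counts stayed within 1.5 times. The numbers share no source in the labels. Deviations of same-numbered arrays correlated at -0.09 to 0.06, and 1 of 9 arrays correlated best with its own number.

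Leaving out 1 array at a time gave 1 to 6 higher and 0 to 6 lower in brain, 2 to 8 and 2 to 9 in kidney, and 2 to 6 and 5 to 10 in liver. Liver minus kidney ranged over 1 to 7 and 3 to 8, liver minus brain over 1 to 2 and 2 to 8, brain minus kidney over 0 to 6 and 0 to 2, tissue dependence over 3 to 20 and the shared ratio over 0 to 1. The number of arrays and the lack of a second pair of pools and of dye swaps limit every value, and signal over background was not analysed here.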
